A study of Mus musculus with 19 samples.

Results

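The 33 genes described here are markers of the somatic and blood cells of the mouse testis: 12 of Sertoli cells, 7 of Leydig cells, 3 of peritubular cells, 4 of endothelium, 5 of macrophages and leukocytes, 1 of mesenchyme in general (Vim) and 1 of red blood cells (Hbb-bs). They were chosen by symbol, for the cell types they are known to mark, and all 33 were among the 22419 genes of the expression files. Their transcripts were measured by poly(A) RNA-seq in preleptotene cells, the germ cells about to enter meiosis, sorted from testes in which spermatogenesis had been synchronized. For RNA-seq the mice were C57BL/6 males. They carried 1 copy each of a Cre driven by the germ cell gene Ddx4 and of a Rosa26 tdTomato reporter that Cre switches on. An inhibitor of retinoic acid synthesis, bis-(dichloroacetyl)-diamine, was given from postnatal day 2 to day 8 and retinoic acid on day 9, and the testes were taken 6.75 days later. The groups were 3 libraries from Stra8-deficient testes (Stra8-/-) and 4 libraries from Stra8+/- testes, of which 2 had low and 2 had high STRA8 by staining of a biopsy. No RNA-seq library of Stra8+/+ cells was included. The sort used light scatter, DAPI to remove dead cells and tdTomato brightness, so cells outside the germ lineage should carry no tdTomato.

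Sertoli cells nurse the germ cells inside the seminiferous tubule and enclose them as they develop. Peritubular cells are contractile cells of the tubule wall, Leydig cells make testosterone between the tubules, and endothelium and resident macrophages lie in the same interstitial space. The data are bulk, so a smaller number of cells of a type cannot be told apart from less RNA per cell.

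The libraries held 25049625 to 30015072 estimated counts, and replicates of a group differed by more than sampling noise. Stra8 was at 18.0, 22.8 and 5.16 TPM (transcript abundance per length, scaled to the same total in each library) in Stra8-deficient replicates 1, 2 and 3, at 315 and 236 TPM in low-STRA8 replicates 1 and 2 and at 1099 and 1248 TPM in high-STRA8 replicates 1 and 2, as the labels state. Germ cell genes were abundant throughout, with Ddx4 at 148 to 213 TPM and Dazl at 1058 to 2057 TPM. Below, 7 values in a row are TPM in that same order: Stra8-deficient 1, 2 and 3, low-STRA8 1 and 2, high-STRA8 1 and 2. Fold changes come from edgeR's quasi-likelihood test on counts, fitted to 12526 genes, with p-values adjusted by Benjamini-Hochberg over all of them, and ± is the standard error of a log2 fold change or, for TPM, the SD.

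Of the 33 markers, 29 were over 1 TPM in at least 1 library and were tested, and 17 were over 1 TPM in all 7 libraries. The 4 that were not tested were the endothelial genes Pecam1, Cdh5 and Kdr and the macrophage gene Adgre1. Another 5 entered the test through 1 library each: Trf through high-STRA8 replicate 1, and Csf1r, Cd68, Lyz2 and Ptprc through Stra8-deficient replicate 3. The most abundant were the Sertoli markers Ctsl and Clu, with means of 323 and 312 TPM, and the plot of all markers by library shows how unevenly the classes were represented.

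**Figure D1:**
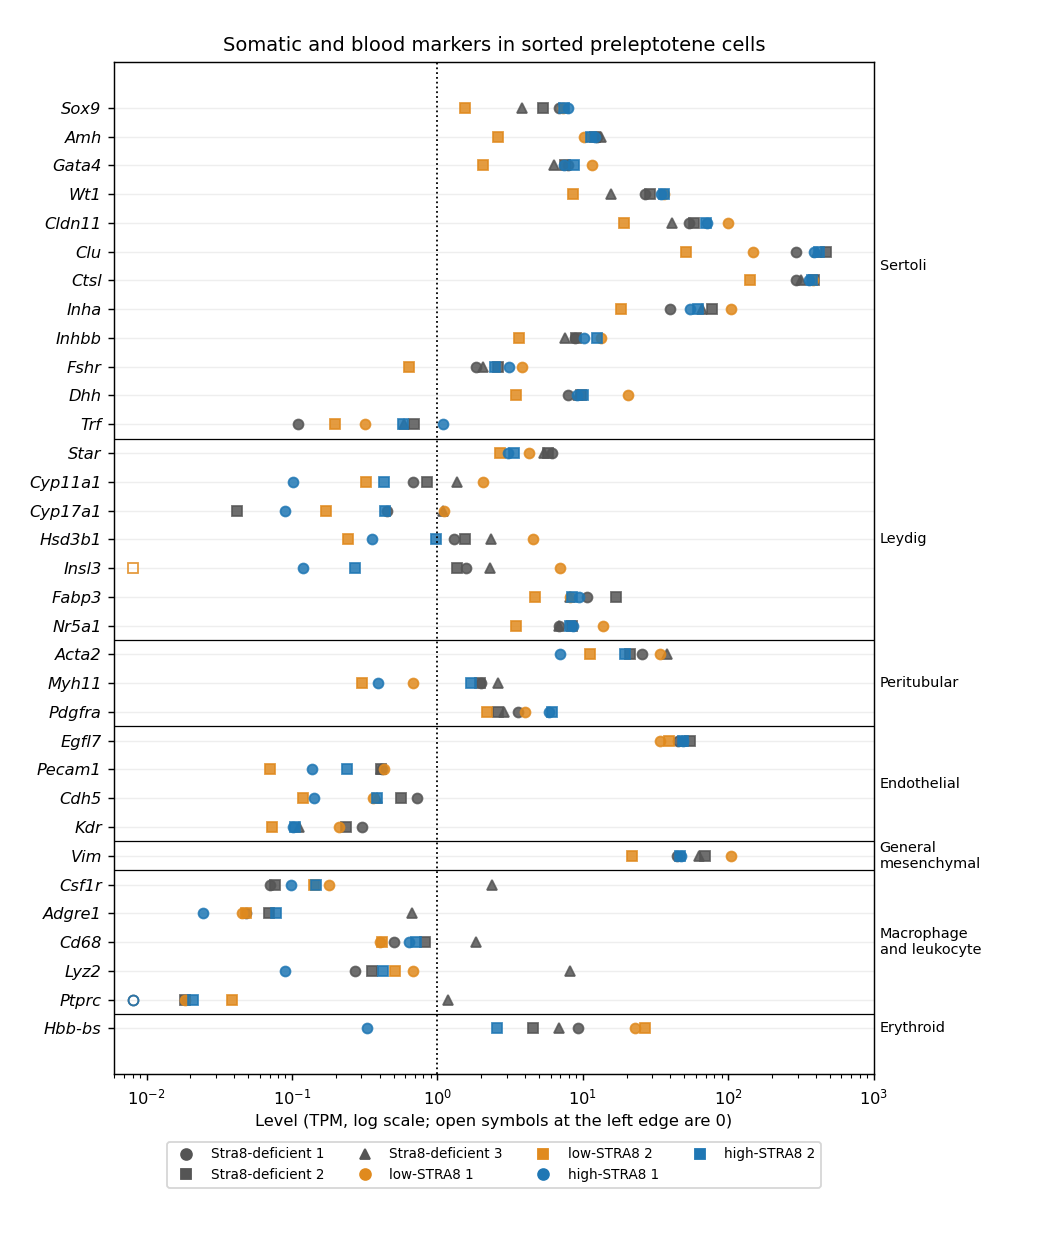
Level of each of the 33 markers (TPM, log scale) in the 7 libraries, with color for the group and symbol shape for the replicate; the dotted line is 1 TPM and open symbols are 0. Most Sertoli markers have low-STRA8 replicate 2 (orange square) at the left end, the macrophage markers have Stra8-deficient replicate 3 (gray triangle) at the right end, and Hbb-bs has both low-STRA8 libraries at 22.9 and 27.0 TPM, right of all others.

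Between high-STRA8 and Stra8-deficient cells, 1 of the 29 tested markers was higher (Pdgfra) and 2 were lower (Star and Hbb-bs), where 37.1% of all genes passed the test (18.8% higher and 18.2% lower). Between high-STRA8 and low-STRA8 cells, 2 were higher (Clu and Pdgfra) and 1 was lower (Hbb-bs), where 39.6% of all genes passed (21.4% higher and 18.3% lower). Between low-STRA8 and Stra8-deficient cells, 1 was higher (Hbb-bs) and 2 were lower (Clu and Myh11), where 24.0% of all genes passed (10.1% higher and 13.9% lower). The median log2 fold change of the tested markers was -0.03, 0.16 and 0.10 in these comparisons, beside -0.02, 0.01 and 0.03 for all genes. The libraries of the 2 groups did not overlap in TPM for 12, 10 and 7 of the 29 markers, where this held for 67.2%, 74.5% and 51.5% of all genes. These comparisons share libraries and are not independent of each other.

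The sums of each class by library differed most for red blood cell and macrophage markers and least for endothelial markers. The endothelial sum, 34.8 to 56.0 TPM, was nearly all 1 gene, Egfl7, so its range does not stand for the class. A second list of endothelial genes ranged 4.31-fold. Sertoli markers summed to 751, 1073, 888, 841, 252, 963 and 1025 TPM, a 4.25-fold range. Leydig markers summed to 27.6, 34.8, 27.6, 40.9, 11.6, 21.8 and 22.1 TPM, and peritubular markers to 31.0, 25.7, 43.6, 38.6, 13.6, 13.2 and 27.3 TPM. Low-STRA8 replicate 2 was lowest for Sertoli and Leydig markers and, at 13.6 TPM, close to the lowest library, high-STRA8 replicate 1 at 13.2 TPM, for peritubular markers. In the authors' normalized signal low-STRA8 replicate 2 was lowest for peritubular markers too (537 against 691). Macrophage and leukocyte markers summed to 0.893, 1.34, 14.2, 1.33, 1.16, 0.846 and 1.37 TPM, a 16.8-fold range made by 1 library.

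**Figure D2:**
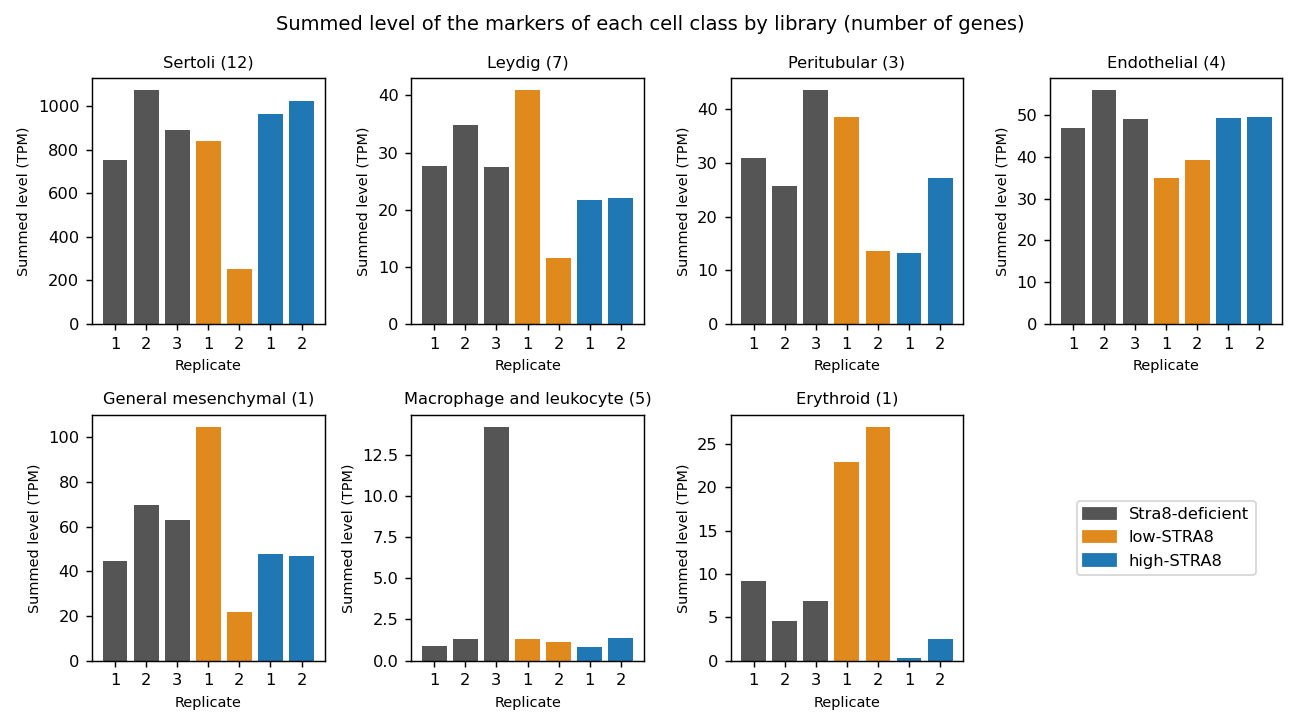
Summed level (TPM) of the markers of each cell class in each library, with the number of genes in brackets; bars are single libraries, colored by group. Low-STRA8 replicate 2 has the shortest Sertoli bar (252 TPM), Stra8-deficient replicate 3 has a macrophage and leukocyte bar of 14.2 TPM where the other libraries reach at most 1.37 TPM, and both low-STRA8 bars are tallest for the red blood cell gene.

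Sertoli cell identity genes were present in every library. Sox9, the transcription factor that directs Sertoli cell fate, was at 6.84, 5.30, 3.80, 7.25, 1.55, 7.95 and 7.45 TPM. Wt1, a zinc-finger factor that maintains Sertoli cells, was at 26.9, 29.1, 15.7, 36.3, 8.54, 34.4 and 36.0 TPM. Gata4, a factor of both Sertoli and Leydig cells, was at 7.93, 7.55, 6.31, 11.7, 2.07, 7.40 and 8.63 TPM. In each of these genes low-STRA8 replicate 2 was the lowest library, and Stra8-deficient replicate 3 the next lowest. Fshr, the receptor of follicle-stimulating hormone, was at 1.85, 2.62, 2.07, 3.79, 0.638, 3.08 and 2.49 TPM, and Ctsl, a lysosomal protease that Sertoli cells secrete but that other cells also make, at 292, 387, 316, 385, 141, 360 and 380 TPM. The remaining members were Amh (anti-Müllerian hormone), Cldn11 (a tight junction protein of the blood-testis barrier), Inha and Inhbb (inhibin subunits), Dhh (the ligand desert hedgehog) and Trf (transferrin), at means of 0.513 TPM for Trf up to 60.4 TPM for Inha.

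The 2 low-STRA8 libraries lay at opposite ends. In 11 of 12 Sertoli markers low-STRA8 replicate 2 was the lowest of the 7 libraries, as it was for 25.2% of all genes over 1 TPM, and in 7 of 12 low-STRA8 replicate 1 was the highest, as it was for 12.5% of all genes. Trf, the exception, was lowest in Stra8-deficient replicate 1, and 75.0% of its 40-base words are shared with a read-through transcript, Gm20425. Low-STRA8 replicate 2 also had the fewest estimated counts (25049625), and the part of depth in these differences was not tested. The level in low-STRA8 replicate 1 was 1.62 to 5.97 times that in replicate 2, with a median of 4.47, and over 2 times for 11 of 12 markers, whereas 10.5% of all genes differed that much and the median over all genes was 1.02. In a second list of 14 Sertoli genes, 12 of which were over 1 TPM, low-STRA8 replicate 2 was again lowest for 11 of 12. The most abundant of these were Aard, at 204, 226, 190, 405, 90.3, 264 and 277 TPM, and Cst9, a cystatin made by Sertoli cells, at 185, 268, 192, 227, 56.5, 306 and 303 TPM. None of the 12 passed the edgeR test in any of the 3 comparisons, and at most 1 of them had an unadjusted p under 0.05 in each. DESeq2 called Nr0b1, a nuclear receptor, higher in the high-STRA8 libraries relative to the Stra8-deficient ones (adjusted p = 0.0463).

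Except for Clu, no Sertoli marker passed the test in any comparison over all libraries, and for 4 of the 12 the direction of a call depended on which low-STRA8 library was kept. With low-STRA8 replicate 1 left out, 11 of 12 Sertoli markers were lower in the remaining low-STRA8 library than in Stra8-deficient cells, against 11.8% of all genes, with log2 fold changes of -2.69 to -0.97 over the 12. With low-STRA8 replicate 2 left out instead, Cldn11, Dhh, Gata4 and Inhbb were higher and Clu was lower, where 8.88% of all genes were higher and 13.5% lower. Gata4 moved from -1.49 ± 0.22 (edgeR adjusted p = 0.00802) to 0.86 ± 0.17 (edgeR adjusted p = 0.0122) on the log2 scale, and Dhh from -1.13 ± 0.23 to 1.35 ± 0.18. Over both libraries their log2 fold changes were 0.12 ± 0.52 and 0.59 ± 0.54. Against high-STRA8 cells the same held: 11 of 12 Sertoli markers were higher in high-STRA8 cells without low-STRA8 replicate 1, where 23.5% of all genes were higher and 18.7% lower. Without replicate 2, Clu was higher and Cldn11, Dhh and Gata4 were lower, where 18.0% of all genes were higher and 13.1% lower. A single library left in a group is assumed here to vary like the other groups.

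The estimated error of the Sertoli markers between high-STRA8 and Stra8-deficient cells also moved with the low-STRA8 libraries, since 1 estimate of the spread served all 7. High-STRA8 and Stra8-deficient libraries did not overlap for Sox9 and Wt1, yet their log2 fold changes of 0.63 ± 0.49 and 0.65 ± 0.47 did not pass (edgeR adjusted p = 0.352 and 0.319). Fitted on these groups alone, the same fold changes had standard errors of 0.21, and Sox9, Wt1, Cldn11 and Inhbb were higher in high-STRA8 cells with edgeR adjusted p of 0.0476, 0.0407, 0.0135 and 0.0175. The log2 fold changes of these 4 genes were 0.51 to 0.64, and 21.2% of all genes were higher and 21.1% lower in that fit.

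**Figure D3:**
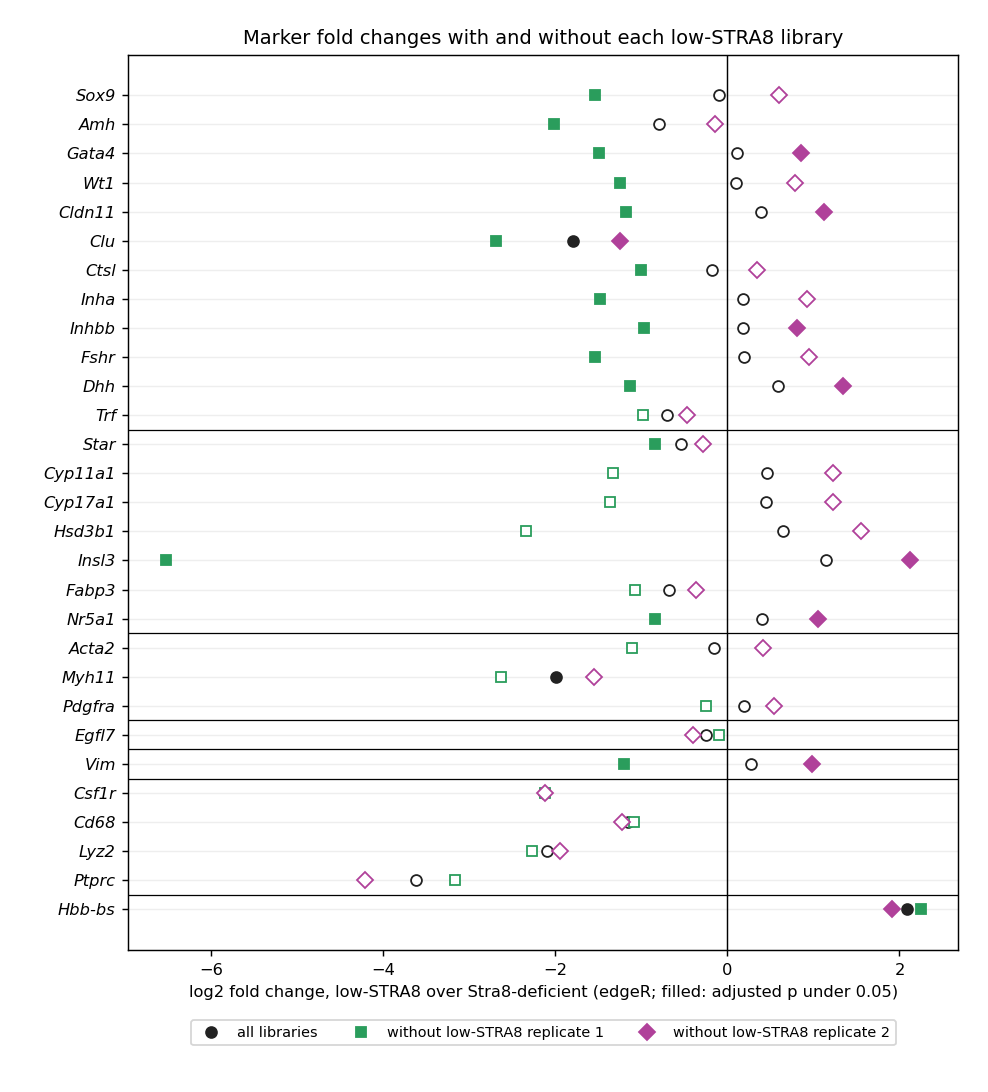
Log2 fold change of the 29 tested markers in low-STRA8 over Stra8-deficient cells, from all libraries (circles), without low-STRA8 replicate 1 (squares) and without low-STRA8 replicate 2 (diamonds); filled symbols have an edgeR adjusted p under 0.05. For Gata4 and Dhh the squares lie at -1.49 and -1.13 and the diamonds at 0.86 and 1.35, whereas the symbols of Clu stay left of 0 and those of Hbb-bs right of 0; the far-left square of Insl3 rests on a count of 0 and is no measure of size.

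Clu, which encodes clusterin, a secreted chaperone abundant in Sertoli cells, was the Sertoli marker that passed the test. The gene lies on mm10 chromosome 14, positions 65968483 to 65981547, plus strand. It was at 292, 474, 406, 148, 51.1, 392 and 424 TPM, so both low-STRA8 libraries were below all others. Amh shared this order, at 12.5, 12.1, 13.3, 10.3, 2.61, 12.1 and 11.4 TPM, but did not pass (log2 fold change of low-STRA8 over Stra8-deficient cells -0.79 ± 0.44, edgeR adjusted p = 0.224). Clu was lower in low-STRA8 than in Stra8-deficient cells (99.5 ± 68.4 TPM, n = 2, against 391 ± 91.7 TPM, n = 3), with a log2 fold change of -1.79 ± 0.39 (edgeR adjusted p = 0.0142). It was higher in high-STRA8 than in low-STRA8 cells, with a log2 fold change of 1.93 ± 0.41 (edgeR adjusted p = 0.00793). The first call was lost without Stra8-deficient replicate 2 (edgeR adjusted p = 0.0596), with the libraries of these groups alone (0.0517) and with no filter on low values (0.0638), and the second without high-STRA8 replicate 2 (0.0503). Without low-STRA8 replicate 1 or 2 the log2 fold change was -2.69 and -1.25 in the first comparison and 2.82 and 1.38 in the second. With a replicate block neither call passed (edgeR adjusted p = 0.0997 in the first comparison and 0.0585 in the second). As a ratio to the summed TPM of the 10 other Sertoli markers without Ctsl, a measure chosen after the values were seen, Clu was at 1.75, 2.23, 2.45, 0.480, 0.848, 1.86 and 1.92. On this scale too the low-STRA8 libraries lay below the other 5, although replicates 1 and 2 were at opposite ends for the summed markers.

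Leydig markers were rarer, and 5 of 7 were highest in low-STRA8 replicate 1. Nr5a1, the nuclear receptor SF1 that drives steroidogenic genes and is also made by Sertoli cells, was at 6.83, 8.46, 6.90, 13.8, 3.48, 8.55 and 8.20 TPM. Fabp3, a fatty acid binding protein, was at 10.7, 16.8, 8.19, 8.22, 4.68, 9.48 and 8.41 TPM, and 31.4% of its 40-base words occur also in a pseudogene, Fabp3-ps1. The enzymes Cyp11a1, Cyp17a1 and Hsd3b1 and the hormone gene Insl3 were each highest in low-STRA8 replicate 1, at 2.04, 1.11, 4.53 and 6.93 TPM. In low-STRA8 replicate 2 these 4 genes were at 0.325, 0.171, 0.244 and 0 TPM, and Insl3 had no count there, which allows up to 3 counts where replicate 1 had 50. Of the 40-base words of Insl3, 62.5% occur also in the overlapping gene Jak3. None of the 4 passed the test over all libraries. With low-STRA8 replicate 2 left out, Nr5a1 and Insl3 were higher than in Stra8-deficient cells, and with replicate 1 left out Nr5a1, Insl3 and Star were lower.

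Star, which carries cholesterol into mitochondria for steroid synthesis (mm10 chromosome 8, positions 25806555 to 25815982, plus strand), passed the test. It was at 6.09, 5.75, 5.38, 4.24, 2.71, 3.06 and 3.34 TPM, with all 3 Stra8-deficient libraries above the 4 others. The level was 5.74 ± 0.357 TPM (n = 3) in Stra8-deficient and 3.20 ± 0.204 TPM (n = 2) in high-STRA8 cells, a log2 fold change of -0.76 ± 0.22 (edgeR adjusted p = 0.0246). With a replicate block this difference did not pass (edgeR adjusted p = 0.0738). The call was lost without Stra8-deficient replicate 1 or 2 or without high-STRA8 replicate 1 or 2, with edgeR adjusted p of 0.0629, 0.0540, 0.174 and 0.12 and log2 fold changes of -0.83 to -0.69. Its order of libraries was thus not that of Insl3 or Hsd3b1. Of the second Leydig list of 10 genes 3 were over 1 TPM and none passed, and the most abundant were Scarb1, a lipoprotein receptor, at 79.9 to 120 TPM, and Nr2f2, a nuclear receptor, at 6.88 to 11.2 TPM.

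Among peritubular markers, Acta2, the smooth muscle actin, was at 25.4, 21.1, 38.1, 33.9, 11.1, 6.96 and 19.4 TPM and did not pass in any comparison. Myh11, the smooth muscle myosin heavy chain (mm10 chromosome 16, positions 14194535 to 14291372, minus strand), was at 2.01, 1.96, 2.60, 0.678, 0.302, 0.388 and 1.71 TPM. Both low-STRA8 libraries and high-STRA8 replicate 1 were low for it, and the log2 fold change of low-STRA8 over Stra8-deficient cells was -1.99 ± 0.61 (edgeR adjusted p = 0.0455). This call did not hold with a replicate block (edgeR adjusted p = 0.183) or with no filter on low values (0.0754). That call was lost when any Stra8-deficient or low-STRA8 library was left out, with edgeR adjusted p of 0.0986, 0.109 and 0.109 without Stra8-deficient replicates 1, 2 and 3 and 0.0549 and 0.149 without low-STRA8 replicates 1 and 2. In a second list of 14 genes of contractile and connective tissue cells, 11 were over 1 TPM, and high-STRA8 replicate 1 was lowest for 8 of them, as it was for 11.2% of all genes. Of these, Myl9, a myosin light chain, was at 6.70 TPM in high-STRA8 replicate 1 and at 7.42 to 30.2 TPM elsewhere. Mylk, the kinase that activates it, was at 7.93, 8.15, 7.71, 9.56, 4.36, 9.68 and 12.2 TPM, with both high-STRA8 libraries above the rest, and did not pass against Stra8-deficient or low-STRA8 cells (log2 fold changes 0.56 ± 0.26 and 0.57 ± 0.29, edgeR adjusted p = 0.123 and 0.146). Tpm2, a tropomyosin, was lower in high-STRA8 cells, at 1.43 and 3.52 TPM against 6.09, 5.87 and 9.0 TPM in Stra8-deficient cells (log2 fold change -1.35 ± 0.46, edgeR adjusted p = 0.0481), and lost the call without any 1 of these 5 libraries (edgeR adjusted p of 0.0573 to 0.288). Tagln, an actin-binding protein, was higher in high-STRA8 than in low-STRA8 cells, at 7.38 and 9.89 against 4.80 and 3.10 TPM (log2 fold change 0.99 ± 0.32, edgeR adjusted p = 0.0369), and lost the call without Stra8-deficient replicate 1, low-STRA8 replicate 2 or either high-STRA8 library (edgeR adjusted p of 0.0538, 0.121, 0.0760 and 0.238).

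Pdgfra, the receptor of platelet-derived growth factor A that marks peritubular and interstitial stromal cells, passed the test in both comparisons of high-STRA8 cells. It was at 3.57, 2.61, 2.89, 4.01, 2.21, 5.90 and 6.16 TPM, and both high-STRA8 libraries were above the 5 others. This held also for Mylk and Tagln, picked from the second list after their values were seen. Acta2 and Myh11 went the other way against Stra8-deficient cells, with log2 fold changes of -1.04 and -0.96 that did not pass. So did every other tested gene of the second peritubular list, with log2 fold changes of -1.48 to -0.63. For Pdgfra the values were as follows. The level was 6.03 ± 0.189 TPM (n = 2) in high-STRA8, 3.11 ± 1.27 TPM (n = 2) in low-STRA8 and 3.02 ± 0.489 TPM (n = 3) in Stra8-deficient cells. Against Stra8-deficient cells the log2 fold change was 1.03 ± 0.24 (edgeR adjusted p = 0.0104), and without high-STRA8 replicate 1 or 2 it was 1.07 and 0.99 with edgeR adjusted p of 0.0532 and 0.0762. Against low-STRA8 cells it was 0.83 ± 0.27 (edgeR adjusted p = 0.0374), and the call was lost without Stra8-deficient replicate 1 or 2, low-STRA8 replicate 2 or high-STRA8 replicate 1 or 2, with edgeR adjusted p of 0.0504, 0.0527, 0.113, 0.113 and 0.161. Without low-STRA8 replicate 2 that log2 fold change was 0.49. The same call was lost with upper quartile scaling (edgeR adjusted p = 0.0623) and with the libraries of these groups alone (0.0777). A replicate block with the low-STRA8 numbers crossed lost it too (0.0601).

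Pdgfra was also compared by transcript, a comparison chosen after the values were seen and not tested. Pdgfra lies on mm10 chromosome 5, positions 75152292 to 75198215, plus strand. ENSMUST00000000476 starts at 75152306, and ENSMUST00000168162 starts at 75155899 with another first exon, inside an intron of the former, while both share their annotated start and stop codons. The transcript of the inner start was at 1.2, 1.63, 0.248, 1.46, 1.37, 3.97 and 3.76 TPM, so the high-STRA8 libraries were above every other library. ENSMUST00000000476 was at 2.09, 0.847, 2.42, 2.17, 0.533, 0.853 and 1.33 TPM, and its groups overlapped. A shorter transcript, ENSMUST00000202681, which starts at 75152292, was at 0.143 to 0.378 TPM in the first 5 libraries and at 1.01 TPM in both high-STRA8 libraries. These transcripts share most of their exons, so reads are divided between them by the authors' estimation.

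**Figure D4:**
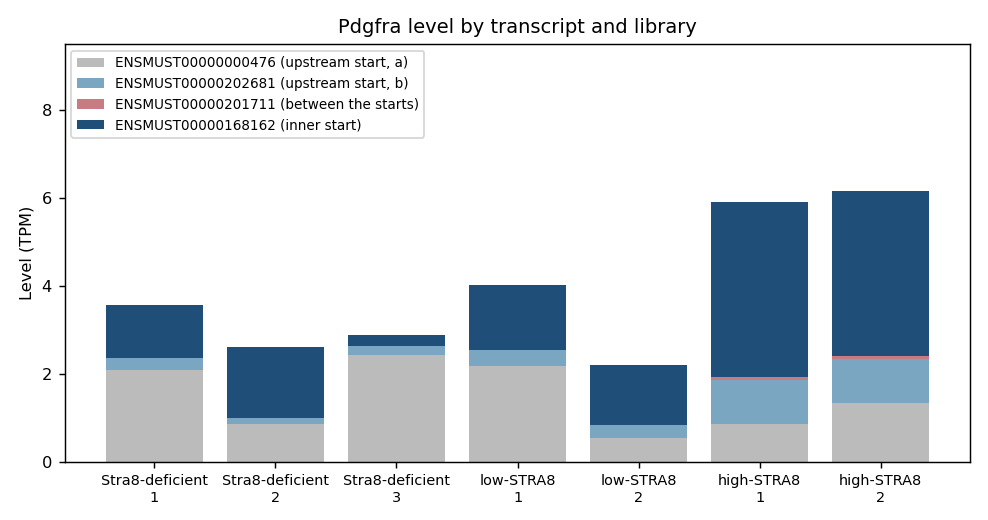
Level of Pdgfra (TPM) in each library, stacked by annotated transcript. The dark segment, the transcript of the inner start, reaches 3.97 and 3.76 TPM in the high-STRA8 libraries and at most 1.63 TPM in the others, while the gray segment of ENSMUST00000000476 does not separate the groups.

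Endothelial markers split into 1 abundant gene and rare ones. Egfl7, which encodes a secreted protein of endothelium and hosts miR-126, was at 45.5, 54.8, 48.0, 33.8, 38.9, 48.9 and 48.7 TPM, and its groups differed by log2 fold changes of 0.12 ± 0.14, 0.37 ± 0.16 and -0.24 ± 0.14 in the 3 comparisons, none of which passed (edgeR adjusted p = 0.528, 0.0958 and 0.255). The defining genes of endothelium were near 0: Cdh5, the cadherin of endothelial junctions, was at 0.723, 0.559, 0.382, 0.361, 0.119, 0.142 and 0.385 TPM, and Pecam1 (the adhesion molecule CD31) and Kdr (a VEGF receptor) stayed at or under 0.428 and 0.301 TPM. Egfl7 was thus at about the same level in low-STRA8 replicates 1 and 2, where Cdh5 and Pecam1 differed 3.03- and 6.04-fold. In a second list of 12 endothelial genes, 2 were over 1 TPM in a library and none passed the edgeR test; 1 had an unadjusted p under 0.05 and was called by DESeq2, Erg, lower in low-STRA8 than in Stra8-deficient cells (DESeq2 adjusted p = 0.0191). The highest of them were Erg, an ETS factor, at 2.44, 2.28, 4.02, 1.06, 0.270, 1.23 and 1.66 TPM, and Robo4, a guidance receptor, at 0.141 to 1.19 TPM.

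Vim encodes vimentin, an intermediate filament of mesenchymal and Sertoli cells. It was at 44.4, 69.6, 63.0, 105, 21.8, 47.5 and 46.8 TPM. It was highest in low-STRA8 replicate 1, as were 7 of 12 Sertoli markers, 5 of 7 Leydig markers and 12.5% of all genes over 1 TPM. It was lowest in low-STRA8 replicate 2, as were 11 of 12 Sertoli markers, 5 of 7 Leydig markers and 25.2% of all genes over 1 TPM. It did not pass the test over all libraries, was lower in low-STRA8 than in Stra8-deficient cells without low-STRA8 replicate 1 (log2 fold change -1.20 ± 0.26, edgeR adjusted p = 0.0223) and higher without replicate 2 (0.99 ± 0.22, edgeR adjusted p = 0.0178).

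Macrophage and leukocyte markers were at low levels except in Stra8-deficient replicate 3. Lyz2, the lysozyme of macrophages and granulocytes, was at 0.270, 0.357, 8.14, 0.684, 0.511, 0.0897 and 0.422 TPM, with 122 estimated counts in Stra8-deficient replicate 3 and 1 to 11 in each other library. Cd68, a lysosomal glycoprotein of macrophages, was at 0.504, 0.820, 1.84, 0.405, 0.418, 0.633 and 0.707 TPM. In all 5 markers Stra8-deficient replicate 3 was more than 2 times every other library, as it was for 0.750% of the genes tested. That share is not a like background. Adgre1 was not tested, and the 4 others passed the filter of 1 TPM only through Stra8-deficient replicate 3. Csf1r, the receptor that macrophages need to survive, reached 2.37 TPM there and at most 0.179 TPM elsewhere, Ptprc (CD45) 1.2 TPM and at most 0.0384 TPM, and Adgre1 (F4/80) 0.669 TPM and at most 0.0781 TPM. Ptprc had no count in Stra8-deficient replicate 1 or high-STRA8 replicate 1, which allows up to 3 counts, and 63 counts in Stra8-deficient replicate 3.

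None of the 4 macrophage markers tested passed the edgeR test in any comparison, and 0 had an unadjusted p under 0.05, with log2 fold changes of -5.00 to -0.64 between high-STRA8 and Stra8-deficient cells. These 4 entered the test through Stra8-deficient replicate 3, so a call by another tool, DESeq2, for Lyz2 (adjusted p = 0.0367) rests on that library and is not read as a difference between groups. In a second list of 17 macrophage and leukocyte genes, 9 were over 2 times higher in Stra8-deficient replicate 3 than in every other library. They include, named after their values were seen, the complement genes C1qa, C1qb and C1qc at 4.24, 3.96 and 3.41 TPM and the adaptor Tyrobp at 6.29 TPM, where the other libraries had at most 0.315, 0.427, 0.588 and 0.352 TPM. Mrc1, the mannose receptor, was not among them, at 1.42, 1.96, 1.55, 2.07, 0.677, 2.88 and 3.22 TPM. Stra8-deficient replicate 3 was also highest for the summed peritubular markers (43.6 TPM) and for the sum of the second endothelial list (7.40 TPM, at most 5.58 TPM elsewhere). The other list of each of these classes did not have this library highest. The endothelial marker sum, nearly all Egfl7, was 48.9 TPM in it and highest in Stra8-deficient replicate 2 (56.0 TPM). The sum of the second peritubular list was highest in low-STRA8 replicate 1, just above Stra8-deficient replicate 3. Stra8-deficient replicate 3 was not highest for the Leydig sum, and its Sertoli sum of 888 TPM lay inside the range of the others.

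Hbb-bs, an adult beta-globin gene of the red blood cell lineage, was the marker that separated the groups most. It was at 9.22, 4.52, 6.91, 22.9, 27.0, 0.327 and 2.55 TPM, from 2 estimated counts in high-STRA8 replicate 1 to 161 in low-STRA8 replicate 2. The 3 groups did not overlap: both low-STRA8 libraries were highest and both high-STRA8 libraries lowest. The level was 24.9 ± 2.88 TPM (n = 2) in low-STRA8, 6.88 ± 2.35 TPM (n = 3) in Stra8-deficient and 1.44 ± 1.57 TPM (n = 2) in high-STRA8 cells. High-STRA8 against low-STRA8 cells gave a log2 fold change of -4.29 ± 0.67 (edgeR adjusted p = 0.00246), which passed under 17 of 17 alternative settings, with -3.48 without high-STRA8 replicate 1 and -6.18 without high-STRA8 replicate 2. Low-STRA8 against Stra8-deficient cells gave 2.09 ± 0.50 (edgeR adjusted p = 0.0199). That call was lost without Stra8-deficient replicate 2 (edgeR adjusted p = 0.0784), with a replicate block (0.0949) and with its low-STRA8 numbers crossed (0.0537). With limma on log2(TPM + 0.1) it was lost too (limma adjusted p = 0.0818). High-STRA8 against Stra8-deficient cells gave -2.21 ± 0.64 (edgeR adjusted p = 0.0265), and edgeR adjusted p of 0.0771, 0.0621 and 0.131 without Stra8-deficient replicate 1 or 3 or high-STRA8 replicate 1. Without high-STRA8 replicate 1 that log2 fold change was -1.40, and without high-STRA8 replicate 2 it was -4.10. This call was also lost with a replicate block (edgeR adjusted p = 0.104) and with its low-STRA8 numbers crossed (0.0838).

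The other globin genes are near copies of Hbb-bs or of each other, so their reads could be divided between them by the authors' estimation. Hbb-bs (positions 103826534 to 103828096) and Hbb-bt lie on mm10 chromosome 7, minus strand, and their coding sequences of 441 bases differ at 1 base, position 417 counted from the A of the start codon. The last 61 coding bases before the stop codon are shown for both, read on the minus strand at chr7:103826668-103826728 and chr7:103812659-103812719, because they hold the base, in capitals, that tells the coding sequences apart.
Hbb-bs: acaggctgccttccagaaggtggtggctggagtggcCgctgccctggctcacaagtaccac
Hbb-bt: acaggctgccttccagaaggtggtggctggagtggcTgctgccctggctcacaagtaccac
Reads from most of the coding sequence therefore fit both genes, and 66.4% of the 40-base words of the Hbb-bs transcripts occur in Hbb-bt. Hba-a1 and Hba-a2, the adult alpha-globin genes, share 69.5% and 89.1% of theirs.

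Hbb-bt was at 1.35, 0.838, 1.10, 7.52, 4.76, 0.479 and 0.743 TPM, and both low-STRA8 libraries were again above the rest. It was higher in low-STRA8 than in Stra8-deficient cells (log2 fold change 2.69 ± 0.46, edgeR adjusted p = 0.00605) and lower in high-STRA8 than in low-STRA8 cells (-3.63 ± 0.58, edgeR adjusted p = 0.00263). Hba-a1 was at 7.38, 2.07, 4.86, 17.6, 18.1, 0.366 and 3.75 TPM. It was lower in high-STRA8 than in low-STRA8 cells (-3.33 ± 0.83, edgeR adjusted p = 0.0146), and higher in low-STRA8 than in Stra8-deficient cells (2.15 ± 0.67, edgeR adjusted p = 0.0491), a call that was lost without any 1 of these 5 libraries (edgeR adjusted p of 0.0750 to 0.151). Hba-a2 was at 1.08, 2.60, 3.44, 4.17, 5.72, 0.355 and 1.06 TPM and passed only between high-STRA8 and low-STRA8 cells (-3.08 ± 0.78, edgeR adjusted p = 0.0158), not without low-STRA8 replicate 2 (0.0507) or high-STRA8 replicate 1 or 2 (0.108 and 0.0617).

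Other genes of the red blood cell lineage were too low to tell whether they followed the globins. Alas2, the first enzyme of heme synthesis in red blood cell precursors, was at 0.326, 0.166, 0.195, 0.601, 0.197, 0.12 and 0.0473 TPM, highest in low-STRA8 replicate 1, and Slc4a1 and Epb42 (membrane proteins of the red blood cell) were at most at 0.0284 and 0.136 TPM. The globins also did not follow the Sertoli markers, since Hbb-bs was at 22.9 and 27.0 TPM in low-STRA8 replicates 1 and 2, where the Sertoli markers had a median difference of 4.47-fold.

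**Figure D5:**
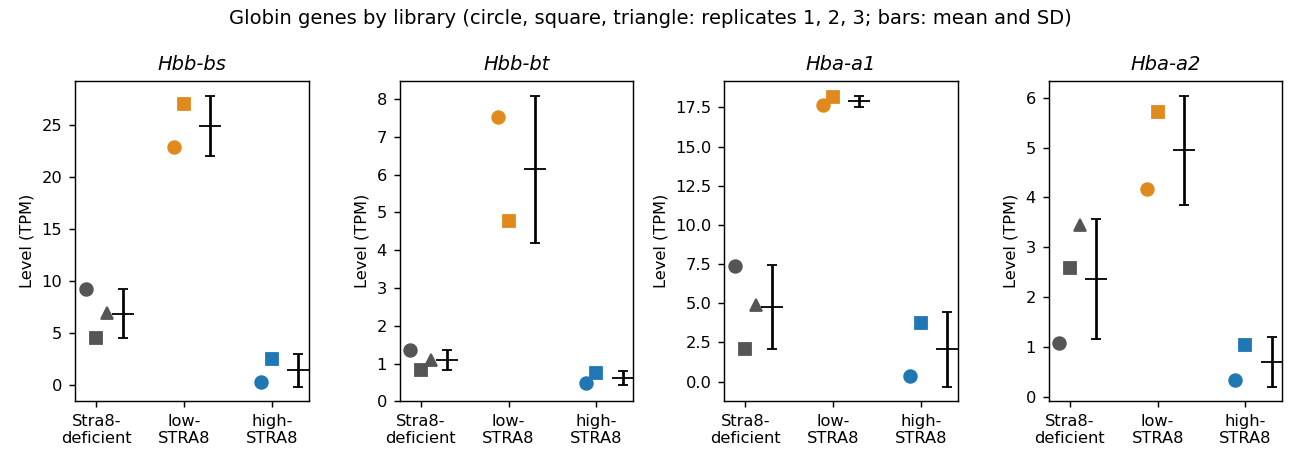
Level (TPM) of the 4 adult globin genes in each library, by group; symbols are libraries (circle, square and triangle for replicates 1, 2 and 3) and the bars beside them the mean and SD. In each gene both low-STRA8 libraries are above every Stra8-deficient and high-STRA8 library, at 22.9 and 27.0 TPM for Hbb-bs, and high-STRA8 replicate 1 is lowest.

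Binding of FLAG-tagged STRA8 was assayed by ChIP-seq in whole, unsorted, synchronized testes, 3 FLAG/FLAG samples and 3 wild-type samples without the tag. None of the 33 markers had a summit within 1 kb of the start site of a protein-coding transcript in at least 2 of 3 FLAG/FLAG libraries and in no wild-type library, where 13.1% of 21501 genes did, and 22.5% of 12353 genes over 1 TPM. In the second lists, 1 of 74 genes did: Espn, an actin-bundling protein of Sertoli cells, which was named for its summit. With 1 FLAG/FLAG library enough, 2 of 33 markers had a summit, against 22.5% of all genes. They were Pdgfra, with a summit of score 9.04 (-log10 p) in FLAG/FLAG replicate 2 at position 75156318, downstream of the inner start, and Gata4, with a summit of score 7.24 in FLAG/FLAG replicate 1, 188 bases before a start site.

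The 121 bases around the Gata4 summit, at chr14:63245399-63245519 and given on the plus strand, are shown because Gata4 and Pdgfra are the only markers with a summit in any FLAG/FLAG library. They hold 0 matches on either strand to CNCCTCAG, the motif searched here for STRA8, and Gata4 did not pass the expression test in any comparison over all libraries. The 121 bases around the Pdgfra summit and the 200 bases before its inner start also held 0 matches.

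Gata4 summit: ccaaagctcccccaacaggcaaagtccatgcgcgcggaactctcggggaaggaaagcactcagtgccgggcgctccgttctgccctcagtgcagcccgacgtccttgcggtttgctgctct

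Promoter windows of RefSeq on GRCm38.p6, from 250 bases before to 50 after a start, were held for 19 of the 33 markers. CNCCTCAG occurred on either strand in 4 of the 19 (Egfl7, Cldn11, Cd68 and Ctsl), against 10.1% of 16345 genes and 11.3% of 9752 genes over 1 TPM. None of these 4 had a summit near a start site.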

How the data were processed

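RNA-seq was analyzed in 7 libraries of sorted preleptotene cells (3 Stra8-deficient, 2 low-STRA8 and 2 high-STRA8) and FLAG ChIP-seq in 3 FLAG/FLAG and 3 wild-type testis samples. Groups were taken from the titles that the submitters gave the samples. The authors quantified transcripts with kallisto 0.43.0 against a mouse transcript set and deposited estimated counts, effective lengths and TPM for each transcript, and TPM for each gene summed over protein-coding transcripts. They also deposited a normalized signal for each gene, the estimated count divided by a DESeq2 1.18.1 normalization factor. For ChIP-seq the authors aligned with Bowtie 1.2.0 to mm10, used SAMtools 1.3.1 and deposited MACS2 2.1.1.20160309 summits with a score, -log10 p. Input libraries were not used here.

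Here, 75554 of 75737 transcripts were matched to GENCODE M21. Genes were joined to transcripts by symbol (12225 genes) or by their summed TPM within 0.2% or 0.003 TPM, which left 19 of 12545 genes over 1 TPM without counts. The summed estimated counts, rounded to whole numbers, entered edgeR 4.0.16 (TMM, robust quasi-likelihood F test, R 4.3.3) in 1 fit with 3 contrasts, over 12526 genes at an adjusted p of 0.05. The libraries held 25049625 to 30015072 estimated counts, of which 90.5% to 93.3% were joined, and the common coefficient of variation was 0.173 with 4 residual degrees of freedom. Tested on simulated data, the fit recovered 74.6% of 2-fold changes for high-STRA8 against Stra8-deficient, 67.2% for high-STRA8 against low-STRA8 and 75.6% for low-STRA8 against Stra8-deficient libraries. The simulated spread followed the trend with abundance over all genes, not the spread of each marker. For Sertoli markers such as Sox9 and Wt1 (standard errors of 0.49 and 0.47 between high-STRA8 and Stra8-deficient cells), recovery was not measured. The paper calls the RNA-seq replicates biological. Nothing in the labels says whether replicates came from separate mice, so p-values measure the spread between these libraries. Floors of 3 counts cover counting error only.

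Alternatives were DESeq2 1.42.0, upper quartile scaling, limma 3.58.1 on log2(TPM + 1), log2(TPM + 0.1) and log2(signal + 1), other filters, a replicate block, the libraries of 2 groups alone and leaving out each library. The 33 markers and the second lists of 75 genes (1 of them not in the files) were chosen with earlier results of these data known. Given by library are markers that passed in any comparison, the 2 most abundant of each class, Sox9, Wt1, Gata4, Fshr, Nr5a1 and Hbb-bs. From the second lists, genes that passed and the 2 most abundant of each class are named, and other genes were named after their values were seen. The rule also asked for globin proteins, which are not shown. Some items withheld for evaluation are not reported here. Shared sequence was counted in 40-base words of GENCODE M21 transcripts.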

Additional observations from a re-analysis of the deposited data

How the results depend on the processing

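Fold changes of the 9 calls kept their direction under every alternative run, and the summed levels, the count over 1 TPM and 0 bound markers held within their spread, except for 2 bound markers when 1 FLAG/FLAG library was enough. Between high-STRA8 and Stra8-deficient cells, 3 calls became 1 with a replicate block, 8 with the libraries of these groups alone, and 0 to 8 with a library left out (0 without high-STRA8 replicate 1, 1 without Stra8-deficient replicate 1, and 8 without low-STRA8 replicate 1 or 2). Between high-STRA8 and low-STRA8 cells, 3 became 1 to 15 with a library left out (15 without low-STRA8 replicate 1, 10 without low-STRA8 replicate 2, 1 without high-STRA8 replicate 2). Between low-STRA8 and Stra8-deficient cells, 3 became 5 with limma on log2(TPM + 1), 1 with no filter on low values, 0 with a replicate block, and 0 to 16 with a library left out (16 without low-STRA8 replicate 1, 9 without low-STRA8 replicate 2, 0 without Stra8-deficient replicate 2). Where 0 were called by edgeR, 2, 2 and 3 markers had an unadjusted p under 0.05 (without high-STRA8 replicate 1, with the block and without Stra8-deficient replicate 2). The cause was not tested. The labels do not say whether the replicate numbers pair the samples. Differences between replicates 1 and 2 correlated across 12526 genes at -0.196 (Stra8-deficient and low-STRA8), -0.037 (Stra8-deficient and high-STRA8) and -0.127 (low- and high-STRA8). Correlations of a single difference in each group show no shared deviation but cannot exclude pairing. With the low-STRA8 numbers crossed, an alternative added after seeing the data, each of the 3 comparisons had 2 calls. Over all genes, the split of higher and lower calls moved with the scaling. It was 2359 and 2285 (high-STRA8 against Stra8-deficient), 2678 and 2287 (high- against low-STRA8) and 1270 and 1737 (low-STRA8 against Stra8-deficient). It became 1929 and 3104, 2297 and 2967, and 1150 and 1863 with upper quartile scaling, and 2044 and 3001, 3112 and 1792, and 497 and 2681 with limma on log2(TPM + 1), which moved the median of all genes by up to 0.153 on the log2 scale (low-STRA8 against Stra8-deficient: -0.153). Depth limits the macrophage markers, globins and endothelial genes, several of which rest on fewer than 10 estimated counts in a library.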

Other observations

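Cd3e, which encodes a chain of the T cell receptor complex, was like Mrc1 not highest in Stra8-deficient replicate 3, unlike 9 of the 17 genes of the second leukocyte list. It was at 24.0, 24.2, 30.8, 31.3, 38.8, 43.4 and 37.6 TPM in Stra8-deficient replicates 1, 2 and 3, low-STRA8 replicates 1 and 2 and high-STRA8 replicates 1 and 2, while Ptprc (CD45), which T cells carry, was at most at 0.0384 TPM in 6 of these libraries. It passed the test as higher in high-STRA8 cells, relative to Stra8-deficient ones (log2 fold change 0.70 ± 0.18, edgeR adjusted p = 0.0172) and in low-STRA8 than in Stra8-deficient cells (0.61 ± 0.18, edgeR adjusted p = 0.0436), where 37.1% and 24.0% of all genes passed. The first call was lost without Stra8-deficient replicate 1 or 2 or high-STRA8 replicate 1 or 2, with edgeR adjusted p of 0.0566, 0.0570, 0.135 and 0.0572. The second was lost without Stra8-deficient replicate 1 or 2, low-STRA8 replicate 2 or high-STRA8 replicate 1 or 2, with edgeR adjusted p of 0.118, 0.131, 0.191, 0.0744 and 0.0725. S100a8 was at 0 in all 7 libraries and S100a9 was at most at 0.332 TPM.

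Egfl7, Scarb1, Nr2f2 and Cd3e were at 0.723 to 1.37 times the level in low-STRA8 replicate 1 over replicate 2, where 11 of 12 Sertoli markers were over 2 times. They were picked after their values were seen, and no explanation was tested.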
